A study of Mus musculus with 24 samples.

Results

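The effect of MitoCDNB that mouse liver held in common at 1 h and 4 h after injection was measured as the average effect of treatment over both times. It rests on all 24 libraries of the series, 12 from mice given MitoCDNB and 12 from mice given vehicle, compared with the time as a block and without a term for a difference between the times. Each of the 4 groups held 6 libraries of poly(A) RNA from the medial liver lobe of C57BL/6 mice, which the labels give as separate mice. The groups were vehicle with 0.1% ethanol at 1 h, 5 mg/kg MitoCDNB at 1 h, the same vehicle at 4 h and the same dose of MitoCDNB at 4 h. The labels used here give no age, sex or route of injection, and every library comes from whole tissue of a single strain at 1 dose.

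MitoCDNB joins CDNB, an electrophile that glutathione S-transferases attach to glutathione, to a lipophilic triphenylphosphonium cation that the membrane potential draws into mitochondria. It was designed to remove glutathione there and to block the thioredoxin and peroxiredoxin enzymes, the other arm of mitochondrial peroxide removal. In liver, hepatocytes make plasma proteins, glucose, lipids and urea, while sinusoidal endothelial cells, Kupffer cells and stellate cells line and support them. Immediate transcriptional responses to an injury or drug often fade within hours, and genes shifted at both an early and a later time are therefore looked at apart from those of either time.

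A gene is said to be called where its adjusted p was under 0.05 in the edgeR quasi-likelihood test with Benjamini-Hochberg adjustment over all 13833 tested genes. Levels are CPM, counts relative to the scaled library size, and fold changes are log2 ratios of MitoCDNB to vehicle from the fit, with their standard errors (SE). The average comes from a single treatment term fitted to all libraries and is not the plain mean of the fold changes at 1 h and 4 h. The time at which a gene has more counts can weigh more in it. Total counts ran from 25.1 to 37.2 M per library. The albumin gene Alb was at 24500 to 42700 CPM in every library. On the second principal component, which took 10.2% of the variance, 2 libraries of 4 h stood apart with scores of -28.7 (vehicle replicate 1) and -37.2 (MitoCDNB replicate 2). The 1 h replicates 4 to 6 of both treatments held 0.446 to 1.15 CPM of the neuronal transcript Snap25, which had no count in the other 18 libraries. Counts and the calls of named genes are also given without these libraries, and the part of either set in any result was not tested beyond those values.

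Over both times, 253 genes (1.83% of those tested) differed between MitoCDNB and vehicle. Of these, 163 were higher with MitoCDNB (1.18%) and 90 were lower (0.651%). The log2 fold change had the same sign at 1 h and 4 h for 248 of the 253. The test of the average favours genes with the same sign at both times, so this count is a description only. A stricter class also had an unadjusted p under 0.05 at each time; it held 142 genes (1.03% of those tested), 95 higher and 47 lower. Only 10 genes (0.0723%) were called at each time on its own in the same direction: Ctla2a, Agt, Etnppl, Hfe2, Got1, Dbn1, Exph5 and Lyve1 were higher, and Gm4951 and Ldah were lower. At 1 h alone 909 genes (6.57%) were called and at 4 h alone 114 (0.824%). The average effect added 69 genes that were called at neither time alone, while 150 of its genes were also called at 1 h only and 24 at 4 h only.

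The effects of the 2 times, which share no library, shared few called genes. Of the 909 genes called at 1 h, 46.4% had the same sign at 4 h, against 50.2% of all tested genes. With an unadjusted p under 0.05 at 4 h, 74 of them (8.14%) had the same sign and 100 (11%) the opposite sign. Among the 114 genes called at 4 h, 60.5% had the same sign at 1 h. With such a p at 1 h, 14 (12.3%) had the same sign and 9 (7.89%) the opposite sign. Over all tested genes, 1.46% had the same sign and an unadjusted p under 0.05 at each time. The 10 shared genes were 1.10% of the 1 h list and 8.77% of the 4 h list. Another 5 genes were called at both times in opposite directions. They were Apex2, Fam109a, Cbx2 and Nr1d1, which were lower at 1 h and higher at 4 h, and Il1a, which was higher at 1 h and lower at 4 h. Across the 13833 genes, which are not independent replicates, the fold changes of the times had a Pearson r of 0.0136 and a Spearman rho of 0.00105.

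**Figure D1:**
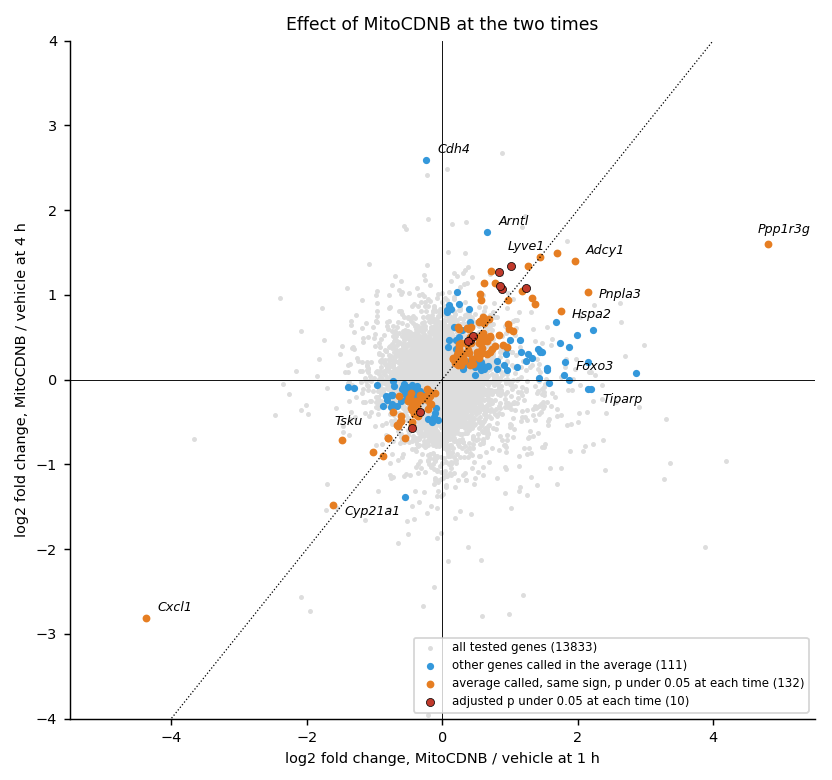
Log2 fold change of MitoCDNB over vehicle at 1 h (x axis) and at 4 h (y axis), with a point per tested gene and a dotted line where both are equal; 3 genes lie outside the axes. The 10 genes called at each time lie near the dotted line, while Ppp1r3g (4.82 at 1 h, 1.60 at 4 h), Tiparp (2.20, -0.10) and Cdh4 (-0.23, 2.59) owe their average mainly to a single time.

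The counts depended on single libraries. Without vehicle replicate 1 of 4 h the average effect called 618 genes (378 higher, 240 lower), among them all 253, and 37 genes were called at each time. Leaving out vehicle replicate 2 of 1 h gave the fewest, 165. The count of lower genes also moved by over 1.5 times, to between 49 and 59, without vehicle replicate 1 or 2 of 1 h, MitoCDNB replicate 2, 3 or 6 of 1 h, or MitoCDNB replicate 2 of 4 h. Without both 4 h libraries that stood apart, 471 genes were called (296 higher, 175 lower), 241 of the 253 among them, and 25 at each time. With only replicates 1 to 3 or only replicates 4 to 6 of 1 h beside all of 4 h, which leaves 18 libraries, 51 and 21 genes were called. Most calls of single genes were lost in these smaller sets. Of the 58 called genes named by the rule given with the processing, 46 lost their call without replicates 1 to 3 of 1 h and 40 without replicates 4 to 6, while none lost it without the 2 libraries of 4 h. The 9 that kept it in both fits that left out a set of 1 h were Agt, Cdh4, Ctla2a, Dbn1, Etnppl, Gm4951, Got1, Hfe2 and Hspa2.

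Ctla2a, which codes for an inhibitor of cysteine proteases resembling the propeptide of cathepsins, had the smallest p of the average effect. Its level at 1 h ran from 1.03 to 2.36 CPM in vehicle (median 1.30) and from 2.82 to 4.49 with MitoCDNB (median 3.43). At 4 h it ran from 1.24 to 1.86 (median 1.81) and from 2.94 to 4.01 (median 3.67). No MitoCDNB library overlapped a vehicle library at either time, which held in the same direction for 5 genes of all tested (0.0361%). Its average log2 fold change was 1.16 (SE 0.117, adjusted p = 3.94e-06), with 1.23 at 1 h and 1.08 at 4 h. The paralogue Ctla2b is close in sequence, and how reads matching both were counted is not given in the sources used here.

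Agt, the gene of angiotensinogen, the liver-made precursor of angiotensin, rose by a like amount at both times. Vehicle libraries ran from 281 to 358 CPM at 1 h (median 326) and from 274 to 370.0 at 4 h (median 289), and MitoCDNB libraries from 375 to 449 (median 441) and from 403 to 446 (median 424). All 12 MitoCDNB libraries were above all vehicle libraries of their time. The average log2 fold change was 0.44 (SE 0.053, adjusted p = 4.69e-05), with 0.41 at 1 h and 0.47 at 4 h. Agtr1a, the angiotensin receptor gene, named after its values were seen, was also called, at 0.27 (SE 0.0674, adjusted p = 0.0376), with 0.25 at 1 h and 0.28 at 4 h. Its vehicle and MitoCDNB libraries overlapped at both times.

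Got1, the cytosolic aspartate aminotransferase of the malate-aspartate shuttle and of gluconeogenesis, ran from 114 to 228 CPM in vehicle (median 131) and from 183 to 321 with MitoCDNB (median 277) at 1 h. At 4 h the ranges were 90.3 to 185 (median 109) and 169 to 340.0 (median 260.0). Single vehicle libraries reached into the MitoCDNB range at each time. The average log2 fold change was 0.98 (SE 0.145, adjusted p = 0.000867). Etnppl, the phospho-lyase that breaks down phosphoethanolamine, had 95.4 to 139 CPM in vehicle (median 119) and 126 to 300.0 with MitoCDNB (median 218) at 1 h, and 60.1 to 122 (median 83.0) and 147 to 244 (median 168) at 4 h. Its groups overlapped slightly at 1 h and not at 4 h. The average was 0.98 (SE 0.131, adjusted p = 0.000254), with 0.88 at 1 h and 1.07 at 4 h.

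The 250 bases upstream of a listed start site are shown for Ctla2a, Agt and Got1, as genes called at each time, with the smallest p (Ctla2a) or with abundant transcripts (Agt, Got1), and for Ppp1r3g and Srxn1, described further on as the largest average effect and as the redox gene that was called. They are from RefSeq (GRCm38.p6), written 5′ to 3′ on the strand of the gene, with the first listed start used for Ctla2a. The only start that the table lists for Ppp1r3g lies inside the span of the gene, so its window is not upstream of the whole gene. In that build Ctla2a spans chr13:60934155-60936625, Agt spans chr8:124556587-124569706, Got1 spans chr19:43499752-43524605, Ppp1r3g spans chr13:35958824-35970388 and Srxn1 spans chr2:152105524-152111376. Capitals mark matches, on either strand, to the letters TGACNNNGC (core of the antioxidant response element bound by NRF2), TGACGTCA (cAMP response element), TGACTCA (AP-1 site), CACGTG (E-box) or TTATGTAA (D-box).
Ctla2a, chr13:60936626-60936875, minus strand: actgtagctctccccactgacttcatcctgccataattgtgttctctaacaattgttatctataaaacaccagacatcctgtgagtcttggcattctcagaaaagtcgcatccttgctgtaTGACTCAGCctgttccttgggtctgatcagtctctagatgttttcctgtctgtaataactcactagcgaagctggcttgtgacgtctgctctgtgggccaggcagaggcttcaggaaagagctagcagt
Agt, chr8:124569707-124569956, minus strand: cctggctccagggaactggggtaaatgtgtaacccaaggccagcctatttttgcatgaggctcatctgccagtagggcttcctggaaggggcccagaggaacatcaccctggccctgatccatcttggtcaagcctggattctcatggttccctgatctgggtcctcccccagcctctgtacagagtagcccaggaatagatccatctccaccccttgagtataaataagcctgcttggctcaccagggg
Got1, chr19:43524606-43524855, minus strand: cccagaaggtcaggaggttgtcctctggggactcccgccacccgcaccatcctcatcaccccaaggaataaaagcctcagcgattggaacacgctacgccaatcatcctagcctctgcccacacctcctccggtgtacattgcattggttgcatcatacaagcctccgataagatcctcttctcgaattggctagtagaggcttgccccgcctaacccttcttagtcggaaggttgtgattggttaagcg
Ppp1r3g, chr13:35967656-35967905, plus strand: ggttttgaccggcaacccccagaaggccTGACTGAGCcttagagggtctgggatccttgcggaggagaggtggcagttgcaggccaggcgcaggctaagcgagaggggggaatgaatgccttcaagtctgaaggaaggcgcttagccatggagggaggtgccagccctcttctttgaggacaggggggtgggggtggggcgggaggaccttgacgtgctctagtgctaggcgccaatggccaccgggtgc
Srxn1, chr2:152105274-152105523, plus strand: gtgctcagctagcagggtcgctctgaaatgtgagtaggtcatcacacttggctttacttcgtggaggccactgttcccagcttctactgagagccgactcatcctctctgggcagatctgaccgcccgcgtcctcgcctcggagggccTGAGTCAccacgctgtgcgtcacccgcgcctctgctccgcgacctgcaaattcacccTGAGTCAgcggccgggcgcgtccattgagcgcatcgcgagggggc

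The capitals in Ctla2a cover an AP-1 match and an antioxidant response element core that share 7 bases, those in Ppp1r3g cover a core, and those in Srxn1 cover 2 AP-1 matches on the opposite strand. No match was found in these windows of Agt and Got1. Among all 32851 windows of this length upstream of RefSeq start sites, 10.2% held the antioxidant response element core, 4.46% the AP-1 letters, 1.55% the cAMP response element, 6.02% the E-box and 0.819% the D-box. For the genes called at each time or named for the size of their effect, 28 windows of 23 genes were searched. Chromosome 18, which holds Gm4951, was left out of this search. A gene counted where any of its windows held a match, while the shares above are per window. Of these 23, 2 held the core (Ctla2a, Ppp1r3g), 1 the AP-1 letters (Ctla2a), 2 the cAMP response element (Ldah, Pnpla3), 2 the E-box (Adcy1, Bcorl1) and none the D-box. A match describes letters in the window and does not show that a factor binds there.

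Hfe2, the gene of hemojuvelin, a co-receptor through which hepatocytes set hepcidin, rose at both times. Vehicle libraries held 31.5 to 47.0 CPM at 1 h (median 40.8) and 31.9 to 45.4 at 4 h (median 38.0), against 50.7 to 65.1 (median 54.9) and 44.4 to 65.9 (median 55.7) with MitoCDNB. The groups did not overlap at 1 h and overlapped by a little at 4 h. For the average effect its log2 fold change was 0.49 (SE 0.0718, adjusted p = 0.000571). It was the only called gene among 22 for metal and iron handling (4.55%, median 0.07).

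Dbn1 codes for drebrin, an actin-binding protein. It ran from 1.48 to 2.17 CPM in vehicle (median 1.75) and from 2.54 to 4.29 with MitoCDNB (median 3.19) at 1 h, and from 0.905 to 1.86 (median 1.16) and 1.58 to 6.00 (median 2.53) at 4 h. The highest value of 4 h was that of MitoCDNB replicate 2, which stood apart. Its average log2 fold change was 1.05 (SE 0.168, adjusted p = 0.00176) and was 0.89 without that library, the lowest of the single omissions, and 0.85 without both libraries that stood apart. Exph5, a gene for an effector of Rab proteins in vesicle release, rose from means of 10.8 and 9.99 CPM in vehicle at 1 h and 4 h to 14 and 13.8, with overlapping ranges and an average of 0.42 (SE 0.078, adjusted p = 0.00838).

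Both strict genes that fell did so by less than 2-fold. Gm4951, which has a symbol of the kind given to predicted genes, ran from 64.6 to 82.8 CPM in vehicle (median 73.4) and from 47.4 to 59.8 with MitoCDNB (median 54.6) at 1 h. At 4 h it ran from 56.2 to 78.8 (median 64.4) and from 38.8 to 48.3 (median 44.9), so that the groups were apart at each time. Its average log2 fold change was -0.50 (SE 0.057, adjusted p = 1.83e-05). Ldah, a hydrolase on lipid droplets, had 26.0 to 33.8 CPM in vehicle (median 28.2) and 21.6 to 24.8 with MitoCDNB (median 22.7) at 1 h, and 21.5 to 30.5 (median 27.5) and 14.7 to 23.1 (median 21.8) at 4 h. Its average was -0.35 (SE 0.0654, adjusted p = 0.00838), and its groups overlapped at 4 h.

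**Figure D2:**
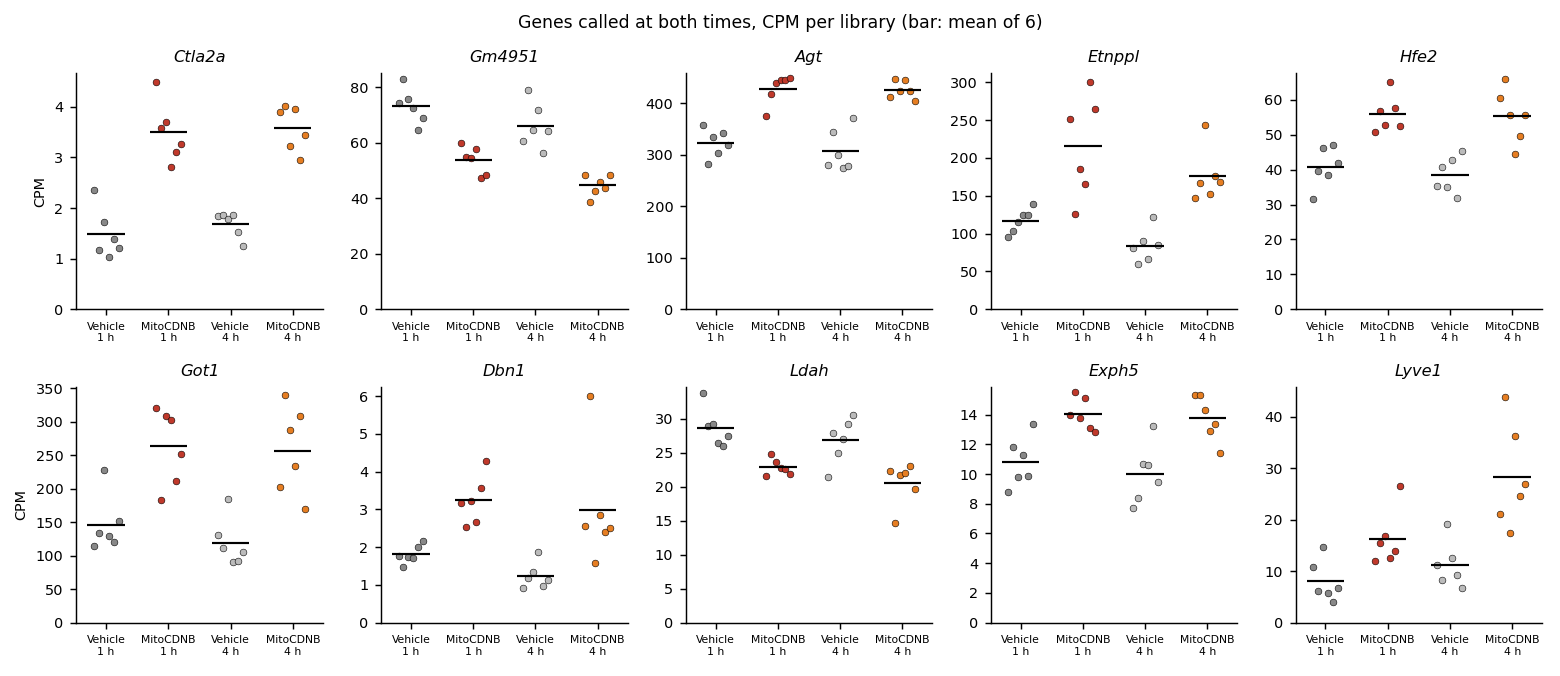
CPM (y axis, from 0) of the 10 genes called at each time, with a point per library in the 4 groups and a bar at the mean of 6. Ctla2a, Agt and Gm4951 have no overlap between vehicle and MitoCDNB at either time, and MitoCDNB replicate 2 of 4 h is the highest point of Dbn1 (6.00 CPM) and Lyve1 (43.9 CPM).

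In the class of 142, the median log2 fold change was 0.51 for the 95 higher genes (0.19 to 4.02) and -0.39 for the 47 lower genes (-3.52 to -0.13). At least 2-fold were 14 higher and 3 lower genes. The effect was larger at 1 h than at 4 h for 51 of the 95 and 33 of the 47. These fold changes chose the class and are given as a description. The difference between the times was itself called for 2 of the 142, and for 43 of all 253 genes of the average effect, against 563 of all tested genes (4.07%); of the 43, 37 had the larger effect at 1 h and 6 at 4 h.

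Ppp1r3g, the targeting subunit that brings protein phosphatase 1 to glycogen in liver, had the largest average. At 1 h it ran from 0.933 to 3.91 CPM in vehicle (median 1.82) and from 26.7 to 85.1 with MitoCDNB (median 59.1). At 4 h it ran from 0.24 to 0.731 (median 0.355) and from 0.236 to 3.85 (median 0.665), with the top value in MitoCDNB replicate 2. The groups were far apart at 1 h and overlapped at 4 h. The average log2 fold change was 4.02 (SE 0.519, adjusted p = 0.000254). It lay nearer to the 4.82 of 1 h than to the 1.60 of 4 h, and ran from 3.21 to 4.52 over the 15 fits other than single omissions. The difference between the times was called (adjusted p = 0.0301). Of 21 tested glycogen genes, Ppp1r3g was higher and Stbd1, an anchor of glycogen to membranes, was lower (-0.33, SE 0.079, adjusted p = 0.0261), which is 9.52% of the list. Without vehicle replicate 1 of 1 h the adjusted p of Stbd1 was 0.054. The adjusted p of Ppp1r3g was 0.0507 without replicates 4 to 6 of 1 h and 0.0469 without replicates 1 to 3; that of Stbd1 was 0.0587 and 0.134.

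Hspa2, a heat shock protein of the HSP70 family best known from testis, ran at 1 h from 1.21 to 2.10 CPM in vehicle (median 1.39) and from 2.45 to 8.09 with MitoCDNB (median 5.13). At 4 h the ranges were 1.41 to 2.12 (median 1.84) and 2.24 to 3.85 (median 3.17), again without overlap. Hspa2 had an average log2 fold change of 1.28 (SE 0.176, adjusted p = 0.000254), with 1.76 at 1 h and 0.81 at 4 h. Tsku, the secreted proteoglycan tsukushi that liver releases, had no overlap either but fell. It ran from 45.0 to 98.4 CPM in vehicle (median 54.9) and from 14.5 to 41.4 with MitoCDNB (median 16.4) at 1 h, and from 71.9 to 136 (median 85.8) and 42.0 to 70.6 (median 56.5) at 4 h. Its average was -1.09 (SE 0.197, adjusted p = 0.00838), and its adjusted p was 0.112 without replicates 1 to 3 of 1 h. With Ctla2a, Agt and Gm4951, these were the 5 genes without overlap at both times.

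Pnpla3, a lipase and acyltransferase of lipid droplets, ran at 1 h from 0.787 to 1.75 CPM in vehicle (median 1.07) and from 2.08 to 7.40 with MitoCDNB (median 5.34). The 4 h ranges of 0.383 to 1.03 (median 0.765) and 0.629 to 3.20 (median 1.13) overlapped. The average was 1.66 (SE 0.265, adjusted p = 0.00183). Adcy1, an adenylyl cyclase, had 0.482 to 1.18 CPM in vehicle (median 0.871) and 2.41 to 4.73 with MitoCDNB (median 3.31) at 1 h. At 4 h it had 0.200 to 2.79 (median 0.591) and 1.02 to 7.03 (median 1.56), where both top values were the 2 libraries that stood apart. Its average was 1.69 (SE 0.342, adjusted p = 0.0133), and fell to 1.38 without MitoCDNB replicate 2. Mdm1, which codes for a protein of centrioles, was at a low level throughout, from a mean of 0.514 to 0.858 CPM at 1 h and from 0.593 to 1.44 at 4 h, with an average of 1.02 (SE 0.241, adjusted p = 0.0258). Without replicates 1 to 3 of 1 h the adjusted p was 0.123 for Pnpla3, 0.202 for Adcy1 and 0.184 for Mdm1. With replicates 4 to 6 left out in their place it was 0.0213, 0.117 and 0.0557.

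**Figure D3:**
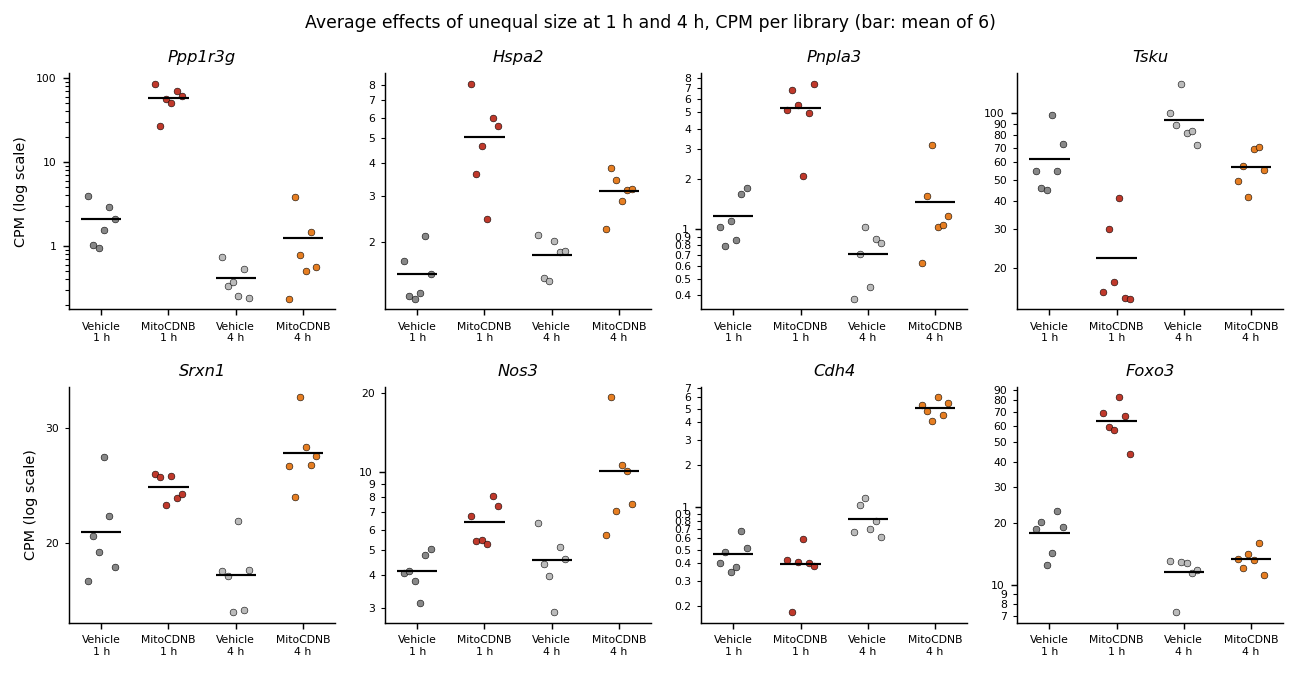
CPM on a log scale (y axis) of 8 genes of the average effect, with a point per library in the 4 groups and a bar at the mean of 6. Hspa2 and Tsku are apart from vehicle at both times, Srxn1 and Nos3 have their larger difference at 4 h, and Cdh4 and Foxo3 differ at a single time.

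The largest falls were uneven among mice. Cxcl1, a chemokine that draws neutrophils, ran in vehicle from 1.28 to 182 CPM at 1 h (median 3.31) and from 4.33 to 139 at 4 h (median 17.9), and with MitoCDNB from 1.17 to 2.85 (median 1.67) and from 2.34 to 18.4 (median 3.91). The vehicle means rest on a few high libraries, and the groups overlapped. The average log2 fold change was -3.52 (SE 0.836, adjusted p = 0.0318). It lost its call in 9 of 24 single omissions, with an adjusted p of up to 0.0789 (without vehicle replicate 2 of 4 h). Cyp21a1, the steroid hydroxylase of the adrenal cortex, ran in vehicle from 0.913 to 4.25 CPM at 1 h (median 2.51) and from 2.78 to 15.4 at 4 h (median 3.88), against 0.333 to 1.98 (median 0.733) and 0.738 to 4.73 (median 2.30) with MitoCDNB. Its average was -1.53 (SE 0.386, adjusted p = 0.0398), lost in 13 of 24 omissions with an adjusted p of up to 0.0783 (without vehicle replicate 2 of 4 h). A near-identical pseudogene makes its counts uncertain.

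The other genes named for the size of their fall changed by less than 2-fold. Ccne1, the cyclin that takes cells into S phase, went from a mean of 0.791 to 0.454 CPM at 1 h and from 2.66 to 1.66 at 4 h, an average of -0.73 (SE 0.172, adjusted p = 0.0251). Dll4, a Notch ligand of endothelial cells, went from 3.86 to 2.42 and from 3.75 to 2.60, an average of -0.60 (SE 0.143, adjusted p = 0.0278). For Cpeb1, which controls translation through poly(A) tails, the average was -0.62 (SE 0.143, adjusted p = 0.0227). Atad2, a chromatin ATPase, and Kif3c, a kinesin motor, were at -0.56 and -0.52 (adjusted p = 0.017 and 0.0205). The calls of these 5 genes were lost without replicates 1 to 3 of 1 h (adjusted p = 0.16 to 0.294), and without replicates 4 to 6 all but that of Ccne1 were lost (0.0504 to 0.114). Slc5a3, the myo-inositol transporter, was at -0.60 (adjusted p = 0.0278) and lost its call in 3 omissions. Zfp809, Tbc1d2b and Bcorl1 were at -0.55, -0.49 and -0.47, and lost theirs in 13, 9 and 13 omissions, with an adjusted p of up to 0.0757, 0.0685 and 0.0678.

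Of the 26 endothelial markers, 3 were higher and 2 lower over both times (19.2% called, against 1.83% of all tested genes). The median log2 fold change was 0.04 against -0.00258 for all tested genes. Lyve1, the hyaluronan receptor of sinusoidal and lymphatic endothelium, ran from 4.09 to 14.6 CPM in vehicle (median 6.38) and from 12 to 26.5 with MitoCDNB (median 14.8) at 1 h. At 4 h it ran from 6.66 to 19.2 (median 10.2) and from 17.4 to 43.9 (median 25.8). The groups overlapped at each time through single high vehicle libraries. The average was 1.19 (SE 0.214, adjusted p = 0.00838), and was 1.10 to 1.31 over single omissions. Nos3, the endothelial nitric oxide synthase, ran from 3.13 to 5.07 (median 4.11) and 5.28 to 8.06 CPM (median 6.12) at 1 h, and from 2.90 to 6.37 (median 4.53) and 5.70 to 19.3 (median 8.84) at 4 h, with the top value in MitoCDNB replicate 2. Its average was 0.89 (SE 0.168, adjusted p = 0.00941), and 0.73 without that library. The adjusted p of Nos3 was 0.0759 without replicates 1 to 3 of 1 h and 0.0504 without replicates 4 to 6, where that of Lyve1 was 0.0588.

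Cdh5, the cadherin of endothelial junctions, was higher by 0.28 (SE 0.0697, adjusted p = 0.0343), a call lost in 7 omissions (adjusted p up to 0.0637, without vehicle replicate 5 of 4 h). The lower markers were Ehd3, an endocytic protein of sinusoidal cells (-0.28, SE 0.0619, adjusted p = 0.0188), and Clec4g, a lectin of the same cells (-0.27, adjusted p = 0.0465). The 21 markers that were not called summed to a median of 421 CPM in vehicle and 429 with MitoCDNB at 1 h, and to 415 and 393 at 4 h, with overlapping ranges at each time. In whole tissue, fewer cells of a type and less RNA per cell cannot be told apart. Other endothelial genes of the class of 142, named after their values were seen, were Cd93 (0.79, SE 0.13, adjusted p = 0.00208), Cldn5 of tight junctions (0.65, SE 0.124, adjusted p = 0.00899) and Icam2 (0.40, SE 0.0956, adjusted p = 0.0279). Dll4, given above among the lower genes, is also an endothelial gene of that class and went the other way (-0.60, adjusted p = 0.0278). Thbd, the thrombin cofactor thrombomodulin, was named for its size, at 1.13 (SE 0.287, adjusted p = 0.0426). It ran from 1.53 to 10.2 CPM in vehicle at 4 h and from 3.58 to 20.4 with MitoCDNB, and its call was lost in 18 of 24 omissions (adjusted p up to 0.0978, without MitoCDNB replicate 2 of 4 h). Amica1, an adhesion molecule of leukocytes, at 1.11 (adjusted p = 0.0362), lost its call in 10 omissions and had 0.87 and an adjusted p of 0.0698 without the same library.

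Among 32 genes of amino acid catabolism and the urea cycle, 4 were higher and none lower (12.5% called, median 0.10), and all 4 were in the class of 142. Beside Got1 and Etnppl these were Slc25a15, the mitochondrial ornithine carrier, and Asl, which splits argininosuccinate. Slc25a15 ran from 216 to 299 CPM in vehicle (median 275) and from 243 to 390.0 with MitoCDNB (median 318) at 1 h, where the groups overlapped. At 4 h it ran from 164 to 234 (median 226) and from 274 to 387 (median 303), without overlap. Its average log2 fold change was 0.42 (SE 0.0889, adjusted p = 0.0159). Asl had medians of 345 and 431 CPM at 1 h and 422 and 578 at 4 h, and an average of 0.34 (SE 0.0761, adjusted p = 0.0213). The call of Asl was lost without replicates 1 to 3 of 1 h (adjusted p = 0.179) and without replicates 4 to 6 (0.0638), and that of Slc25a15 without replicates 1 to 3 (0.0639).

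In lipid synthesis, 2 of 22 lipogenic genes were higher (9.09%, median 0.10): Pnpla3 and Elovl5, an elongase of polyunsaturated fatty acids. Elovl5 went from a median of 189 to 280.0 CPM at 1 h and from 119 to 215 at 4 h, where its groups did not overlap, with an average of 0.78 (SE 0.149, adjusted p = 0.00982). Pmvk, the phosphomevalonate kinase, was the only gene of 24 for cholesterol synthesis and uptake that was called (4.17%), at 0.51 (SE 0.103, adjusted p = 0.0124). Klb, the co-receptor of fibroblast growth factors that act on bile acid synthesis, was the only one of 22 bile acid genes (4.55%), at 0.61 (SE 0.133, adjusted p = 0.0199), with 0.71 at 1 h and 0.50 at 4 h. Elovl5, Pmvk and Klb had an adjusted p of 0.123, 0.206 and 0.187 without replicates 1 to 3 of 1 h, and Klb also lost its call without replicates 4 to 6 (0.0877). No gene of 27 for fatty acid oxidation was called by edgeR, with 1 at an unadjusted p under 0.05, against 15.6% of all tested genes. DESeq2 and limma-voom each called 1.

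Each of the lists nearest to the targets of MitoCDNB held 0 or 1 gene called by edgeR, where 1.83% of all tested genes were called. With 19 to 41 genes each, these lists are too short to tell such counts from that share. Of the 19 tested genes of the mitochondrial glutathione and thioredoxin systems none was called by edgeR, DESeq2 or limma-voom, and 1 had an unadjusted p under 0.05; the log2 fold changes ran from -0.08 to 0.14. None of 21 glutathione S-transferases and none of 41 subunits of the respiratory chain was called by any of the 3 tools, with 0 at an unadjusted p under 0.05 in either list. The respiratory chain genes ran from -0.02 to 0.08. Of 38 NRF2 targets and of 24 cytosolic glutathione and thioredoxin genes, edgeR called the same gene, Srxn1 (2.63% and 4.17%). DESeq2 and limma-voom each called 1 NRF2 target higher and 1 lower, and 1 gene of the cytosolic list higher. An unadjusted p under 0.05 was found for 6 of the 38 and 3 of the 24, against 15.6% of all tested genes. The NRF2 targets ran from -0.59 to 0.45.

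Srxn1 codes for sulfiredoxin, which restores overoxidised peroxiredoxins. It ran from 17.5 to 27.1 CPM in vehicle (median 20) and from 22.9 to 25.5 with MitoCDNB (median 24.5) at 1 h, where a single vehicle library lay above all others. At 4 h the ranges of 15.7 to 21.6 (median 17.9) and 23.5 to 33.4 (median 26.7) did not overlap. Srxn1 had an average log2 fold change of 0.42 (SE 0.0766, adjusted p = 0.00788), with 0.23 at 1 h (adjusted p = 0.19) and 0.62 at 4 h (adjusted p = 0.00194). The difference between the times had an adjusted p of 0.111. The call of the average was lost without replicates 1 to 3 of 1 h (adjusted p = 0.0759).

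**Figure D4:**
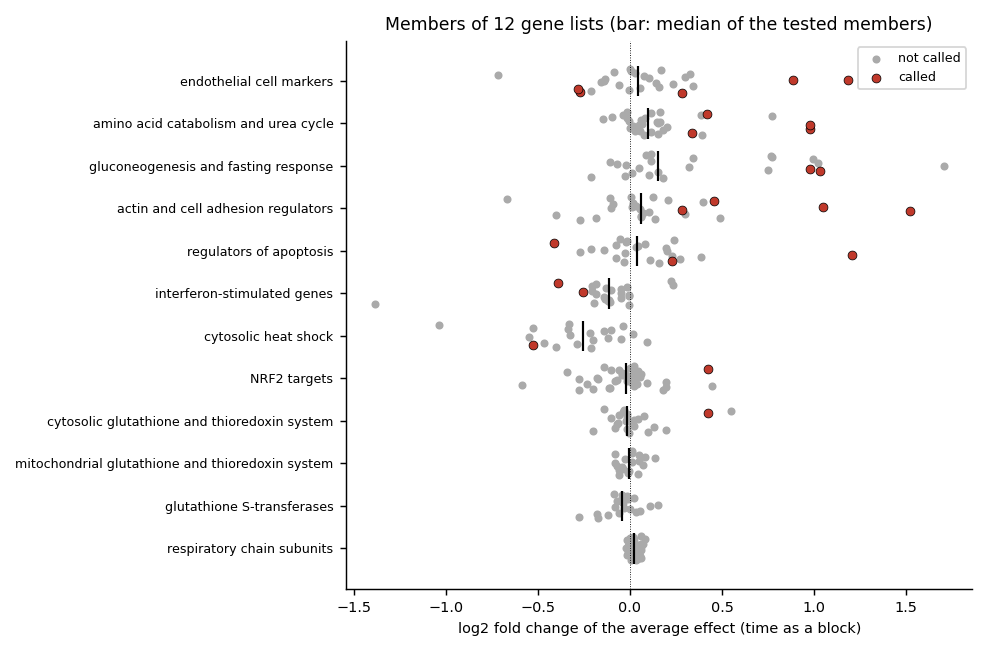
Log2 fold change of the average effect (x axis) for the tested members of 12 gene lists, with a point per gene, red where called, and a bar at the list's median. Members of the mitochondrial glutathione and thioredoxin list (-0.08 to 0.14) and of the respiratory chain (-0.02 to 0.08) lie near 0, while called members of the endothelial list lie on both sides (-0.28 to 1.19).

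How many genes of the stress lists were called depended on the tool, as it did over all tested genes. There edgeR called 253 genes, DESeq2 509 and limma-voom 565. Mafk, a small Maf protein that pairs with NRF2, was the only one of 30 immediate early genes that edgeR called (3.33%), at 0.40 (SE 0.0864, adjusted p = 0.0178). An unadjusted p under 0.05 was found for 12 of the 30, while over all tested genes, to be set beside each list here, the share was 15.6%. DESeq2 called 1 of the 30 higher and limma-voom 12 higher. The median of that list was 1.25 at 1 h and -0.39 at 4 h. For 14 of the 30 the difference between the times was called, against 4.07% of all tested genes. Among 20 cytosolic heat shock genes, Chordc1, an HSP90 partner, was lower (-0.53, SE 0.11, adjusted p = 0.0148), which is 5.00% of the list; 13 of the 20 had an unadjusted p under 0.05, the median was -0.25, and DESeq2 called 6 lower and limma-voom 3. Mafk and Chordc1 lost their calls without replicates 4 to 6 of 1 h (adjusted p = 0.146 and 0.119) and without replicates 1 to 3 (0.0759 and 0.183). None of 29 genes of the integrated stress response was called by edgeR, 3 had an unadjusted p under 0.05, and DESeq2 called 0 and limma-voom 2. Of 20 mitochondrial chaperones and proteases none was called by any of the 3 tools, and 4 had an unadjusted p under 0.05. No gene of 23 for the unfolded protein response was called by edgeR, 3 had an unadjusted p under 0.05, and DESeq2 and limma-voom each called 1.

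Of 24 regulators of apoptosis, 2 were higher and 1 lower (12.5%, median 0.04). Cflar, the decoy that blocks caspase 8 at death receptors, fell from a mean of 69.2 to 44.5 CPM at 1 h and was at 62.9 and 55.1 at 4 h, with an average of -0.41 (SE 0.0777, adjusted p = 0.00838). Bak1, a pore-forming protein of the outer mitochondrial membrane, was higher by 0.23 (SE 0.0527, adjusted p = 0.0239), with 0.24 at 1 h and 0.21 at 4 h. Bcl2l11, the gene of the death activator Bim, had an average of 1.21 (SE 0.237, adjusted p = 0.0121) that came from 1 h. Its means were 2.91 and 13 CPM at 1 h and 3.50 and 4.06 at 4 h, and the difference between the times was called (adjusted p = 4.79e-06). Bnip3, a mitophagy receptor, and Slc2a1, the glucose transporter GLUT1, were higher among 21 hypoxia genes (9.52%, median 0.09), at 0.45 (SE 0.0867, adjusted p = 0.00949) and 0.48 (SE 0.113, adjusted p = 0.0239). All 5 of these genes lost their calls when either set of 1 h replicates was left out, at an adjusted p of 0.0759 to 0.28 without replicates 1 to 3 and of 0.0704 to 0.163 without replicates 4 to 6.

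Of 24 interferon-stimulated genes none was higher and 2 were lower (8.33%, median -0.12). They were Irf9 and Stat2, which code for partners in the transcription factor complex that type I interferon activates. Irf9 ran from 21.6 to 25.2 CPM in vehicle (median 22.4) and from 16.9 to 19.7 with MitoCDNB (median 18.1) at 1 h, and from 20 to 26.8 (median 22.8) and 18.3 to 23.6 (median 19.4) at 4 h. The groups were apart at 1 h and overlapped at 4 h. Its average was -0.26 (SE 0.0556, adjusted p = 0.0184). Stat2 had means of 52.2 and 32.0 CPM at 1 h and 56.3 and 53.5 at 4 h. Its average of -0.39 (SE 0.0891, adjusted p = 0.0225) came from 1 h, and the difference between the times was called (adjusted p = 0.00393). Without replicates 1 to 3 of 1 h the adjusted p of Irf9 and Stat2 was 0.179 and 0.277, and without replicates 4 to 6 it was 0.183 and 0.242. Parp14 and Ifi203, also known as interferon-induced and named after their values were seen, were in the class of 142, at -0.37 (adjusted p = 0.0124) and -0.40 (adjusted p = 0.0343).

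Of 27 regulators of actin and cell adhesion, 4 were higher and none lower (14.8%, median 0.06). Beside Dbn1 and Cdh5 these were Rhoc, a small GTPase that drives actin contraction, and Cdh4, the cadherin known as R-cadherin. Rhoc had means of 7.04 and 9.37 CPM at 1 h and 6.00 and 8.47 at 4 h, an average of 0.46 (SE 0.0897, adjusted p = 0.0102), with an adjusted p of 0.0542 without replicates 1 to 3 of 1 h and 0.0577 without replicates 4 to 6. Cdh4 was no shared gene: its means were 0.467 and 0.398 CPM at 1 h and 0.830 and 5.02 at 4 h, and the difference between the times was called (adjusted p = 2.66e-06). It was 1 of 5 genes called in the average with opposite signs at the times; the others, Rell1, Ccrl2, Actg1 and Tiparp, had log2 fold changes of 1.57 to 2.20 at 1 h and -0.11 to -0.01 at 4 h. Krt8, a keratin of hepatocytes named after its values were seen, was higher by 0.48 (SE 0.0863, adjusted p = 0.00788), with 0.58 at 1 h and 0.37 at 4 h.

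The fasting and clock genes that edgeR called were all higher with MitoCDNB. Of 23 genes of gluconeogenesis and fasting, 2 were higher (8.70%, median 0.15), Got1 and Foxo3. Foxo3, a transcription factor held back by insulin, had means of 17.9 and 63.2 CPM at 1 h and 11.5 and 13.3 at 4 h. For Foxo3 the difference between the times was called (adjusted p = 7.91e-05). Its average log2 fold change was 1.03 (adjusted p = 0.0148). That call was lost without replicates 1 to 3 of 1 h (adjusted p = 0.235) and without replicates 4 to 6 (0.148). Of 22 clock genes, 2 were higher (9.09%, median 0.17), both near the threshold: Arntl, the activator of the clock, at 1.16 (SE 0.284, adjusted p = 0.0348) and Cry2, a repressor, at 0.34 (SE 0.0901, adjusted p = 0.0451). They lost their calls in 10 and 16 of 24 omissions, both with the highest adjusted p (0.0672 and 0.0851) without vehicle replicate 2 of 1 h. Without replicates 1 to 3 of 1 h the adjusted p of Arntl and Cry2 was 0.123 and 0.271, and without replicates 4 to 6 it was 0.0906 and 0.314. Of the 22 clock genes, 13 had an unadjusted p under 0.05, against 15.6% of all tested genes. The difference between the times was called for 5 of the 22, against 4.07% of all tested genes. No gene of 28 that respond to glucocorticoids was called by edgeR, 10 had an unadjusted p under 0.05, and DESeq2 called 5 and limma-voom 8.

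Apart from the endothelial list given above (19.2% called), each list of liver cell markers held 0 or 1 gene called by edgeR. The share over all tested genes was 1.83%, and lists of 7 to 19 genes are too short to tell such counts from it. Of 15 periportal hepatocyte markers 1 was called (6.67%). Of 19 pericentral markers edgeR called none, and DESeq2 and limma-voom each called 1. Of 9 tested hepatocyte markers, Apoa1, the main protein of high-density lipoprotein, was called (11.1%), at 0.28 (SE 0.0715, adjusted p = 0.0426), and lost its call in 17 of 24 omissions (adjusted p up to 0.0853, without MitoCDNB replicate 2 of 4 h). None of 24 acute phase genes was called by edgeR or limma-voom, 5 had an unadjusted p under 0.05, and DESeq2 called 1. The receptor gene Avpr1a, which binds vasopressin on hepatocytes and was named after its values were seen, was higher by 0.58 (SE 0.117, adjusted p = 0.0124), with 0.60 at 1 h and 0.55 at 4 h. Of 18 Kupffer cell and macrophage markers 1 was called (5.56%), Cd14, the co-receptor for endotoxin, at 1.26 (SE 0.293, adjusted p = 0.0268). Its medians were 2.66 and 11.9 CPM at 1 h and 3.16 and 5.16 at 4 h, while the 18 markers summed to medians of 534 and 552 at 1 h and 479 and 454 at 4 h. No marker of stellate cells (18 tested), neutrophils and monocytes (10), lymphocytes (7) or cholangiocytes (8) was called by edgeR, DESeq2 or limma-voom. In these lists 5, 1, 0 and 1 had an unadjusted p under 0.05, against 15.6% of all tested genes. Atp1b1, a subunit of the sodium pump that liver also makes, was the only called one of 12 tested brain markers, at 0.59 (SE 0.109, adjusted p = 0.00838). The adjusted p of Atp1b1 was 0.0892 without replicates 4 to 6 of 1 h, the libraries that held Snap25, and 0.081 without replicates 1 to 3. Cd14 had 0.211 and 0.275.

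Over all 45 lists, 917 distinct genes were tested, of which 30 were higher and 9 lower (4.25%, against 1.83% of all tested genes). A total of 18 lists held no called gene, and 11 of those had none by DESeq2 or limma-voom either. The lists were drawn up for liver and stress with results of these data known, so their share is a description.

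The 10 genes called at each time kept their direction in every fit that was tried. Their calls at each time held less often than their calls in the average effect. Ctla2a, Agt, Gm4951, Etnppl, Hfe2 and Got1 were called at each time in all 24 single omissions and Dbn1 in 20, but Exph5 and Lyve1 in 4 and Ldah in 3. Without replicates 1 to 3 of 1 h, and likewise without replicates 4 to 6, 2 of the 10 were still called at each time. In the average effect, Ctla2a, Agt, Gm4951, Etnppl, Hfe2, Got1 and Dbn1 were called in all 24 single omissions and all 15 other fits at an adjusted p under 0.05. Ldah, Exph5 and Lyve1 kept theirs in all 24 omissions and in 14 of 15 other fits. Ldah and Exph5 lost it without replicates 1 to 3 of 1 h (adjusted p = 0.107 and 0.126), and Lyve1 without replicates 4 to 6 of 1 h (0.0588). Within these sets Ctla2a had an average log2 fold change of 1.17 without replicates 1 to 3 and of 1.11 without replicates 4 to 6, and Agt had 0.47 and 0.43.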

How the data were processed

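The series measured poly(A) RNA of the medial liver lobe of C57BL/6 mice in 24 libraries. The authors deposited a table of raw counts per gene symbol and library. The submitters' processing notes name HISAT2, Trim Galore, DESeq2 and CASAVA 1.8.4, and the build mm10. How reads were counted, on which annotation and with what use of strand is not stated in these sources. Overlapping, antisense and near-identical genes are therefore uncertain.

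Of 24421 genes, 4653 had no count, and filterByExpr (minimum count 10, minimum total 15) kept 13833. Counts were scaled by TMM and tested with the robust quasi-likelihood test of edgeR 4.0.16 (R 4.3.3), with time and treatment as terms for the average effect, and with 4 groups for each time and for the difference between times. P values were adjusted by Benjamini-Hochberg. The SE comes from the fold change and the F statistic. The common biological coefficient of variation was 0.188. The 24 totals averaged 30.3 M counts. Over the 60 pairs within groups no library was a duplicate of another.

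Genes were named by size (12 in each direction in the class of 142 with at least 1 CPM in a treatment and, at each time, 5 of 6 MitoCDNB libraries beyond the vehicle mean in the gene's direction, skipping symbols of predicted genes), where called at both times, or by list (up to 4 called members of each of 45 lists, or the member with the smallest p). Members and lists were chosen with earlier results of these data known. Alternatives were other scalings and filters, DESeq2 1.42.0, limma-voom (limma 3.58.1), other models and left-out libraries. On simulated counts with 50 changed genes of each size the average effect recovered 48% at 1.25-fold and 90% at 1.5-fold. It recovered 98% at 2-fold and 100% at 4-fold, with 5 false calls among 13733 genes. Whether these shares hold for the measured counts, where the difference between the times was called for 563 genes, was not tested.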

Additional observations from a re-analysis of the deposited data

Results flagged for a closer look

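Single libraries far from the rest of their group were looked for in the 29 genes named by size or called at both times. The total counts were included, which made 120 groups of 6. The measure was the gap to the nearest library as a share of the group's range. Its cut-off marks about 5% of groups for independent, normally distributed values. The CPM were not transformed, the genes were chosen by their effects in these libraries, and the same libraries recur over genes. The 20 values marked are therefore a description and are not set against that 5%. MitoCDNB replicate 2 of 4 h gave 7 of them, the highest of its group for Ppp1r3g (3.85 CPM), Dbn1 (6.00), Adcy1 (7.03), Mdm1 (2.63), Amica1 (4.30) and Thbd (20.4) and the lowest for Kif3c (3.18). Vehicle replicate 1 of 4 h gave 3, with Adcy1 high (2.79 CPM) and Cpeb1 (1.53) and Slc5a3 (2.82) low. These are the same libraries that lay apart on the second principal component.

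MitoCDNB replicate 3 of 4 h was high for Etnppl (244 CPM) and Pnpla3 (3.20), and MitoCDNB replicate 1 of 4 h was high for Cxcl1 (18.4). At 1 h, vehicle replicate 3 was high for Got1 (228 CPM) and vehicle replicate 1 for Cxcl1 (182). Of the MitoCDNB libraries of 1 h, replicate 1 was high for Amica1 (4.06 CPM) and Cyp21a1 (1.98), replicate 6 was high for Lyve1 (26.5) and Dll4 (3.79), and replicate 4 was low for Slc5a3 (4.12).

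The effect differed between the times, by the test of the difference itself, for 7 named genes. It was larger at 1 h for Ppp1r3g (adjusted p = 0.0301), Bcl2l11 (4.79e-06), Foxo3 (7.91e-05), Tiparp (2.66e-06) and Nfil3 (0.0064), a repressor of clock genes. Stat2 fell more at 1 h (0.00393), and Cdh4 was higher at 4 h (2.66e-06).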

How the results depend on the processing

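As reported, 163 genes were higher and 90 lower, 10 were called at each time, the difference between times was called for 563, and the class with an unadjusted p under 0.05 at each time held 95 higher and 47 lower genes. In the same order, DESeq2 gave 299, 210 and 22, limma-voom 354, 211 and, for the difference, 913, and the average in the 4-group model 281 and 230, all with a share of higher genes of 55.0% to 62.7% against 64.4%. An adjusted p under 0.01 left 26, 6, 4, 231, 24 and 6. Leaving out replicates 1 to 3 of 1 h gave 18, 3, 2, 275, 14 and 2, and leaving out replicates 4 to 6 of 1 h gave 32, 19, 4, 150, 26 and 16, with fewer libraries in both. Without vehicle replicate 1 and MitoCDNB replicate 2 of 4 h the counts were 296, 175 and 25, and 147 and 71 in the class. Over the 24 single omissions they ran from 114 to 378 higher, 49 to 240 lower, 7 to 37 at each time, 439 to 696 for the difference, and 69 to 188 and 26 to 108 in the class. The cause of these shifts was not tested. Other scalings and filters, no robust estimation, a term for replicates 4 to 6 of 1 h, and leaving out the 20 major urinary protein genes kept these counts within 1.5 times. No named gene changed direction in any of the 39 fits.

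The labels state no pairing. Same-numbered vehicle and MitoCDNB libraries had correlations of their deviations from the group means of -0.213 to 0.265, and not every library matched best with its own number. With the replicate number as a block the fit called 76 higher and 19 lower genes (80.0% higher), 18 lower genes in the class, and 9 genes at each time. Of the 58 called genes named by rule, 26 lost their call with the block, among them Ccne1, Dll4, Cpeb1, Atad2 and Kif3c (adjusted p = 0.0524 to 0.0675).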

Other observations

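Several other genes of the class of 142, named after their values were seen, have roles outside the lists. Fdx1, the mitochondrial ferredoxin that passes electrons to steroid and bile acid hydroxylases, was higher by 0.28 (SE 0.0681, adjusted p = 0.0296 in the edgeR quasi-likelihood test), with medians of 59.3 and 71.9 CPM at 1 h and 61.4 and 72.6 at 4 h. Foxf1, a transcription factor of hepatic stellate cells, was higher by 0.68 (SE 0.133, adjusted p = 0.0102), with medians of 1.16 and 2.06 CPM at 1 h and 1.43 and 1.90 at 4 h. Tgfb3, a ligand of the TGF-beta family, was higher by 0.82 (SE 0.174, adjusted p = 0.0157). Ppard, a nuclear receptor for fatty acids, was higher by 0.48 (SE 0.0952, adjusted p = 0.0102), with 0.66 at 1 h and 0.30 at 4 h. Cacybp, a partner of the S100 calcium-binding proteins, was lower by nearly the same amount at both times (-0.37 and -0.42, average -0.39, adjusted p = 0.0223).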
